A study of Mus musculus with 6 samples.

Results

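The glucocorticoid-responsive genes described here are 9 genes, the glucocorticoid receptor gene Nr3c1 and 8 genes known to respond to the hormone. They were listed by name, with earlier results of these data known, and the rule that finds their probe sets uses no measured value. Every array probe set annotated to exactly 1 of these symbols was taken, which gave 23 probe sets of 45037 tested, and 0 further probe sets carried a member together with another gene. The arrays held total RNA from the brain with the cerebellum removed. The groups were 3 samples from Gb5-deficient mice (Gb5ko, replicates 1 to 3) and 3 from wild type mice (Gb5wt, replicates 4 to 6), described as littermates of matched age and sex, with 1 array per sample. Gb5, encoded by Gnb5, is a G protein beta subunit that pairs with RGS proteins. The labels name no cell-type-restricted deletion and no drug or hormone treatment, and the age, the sex of each animal, the strain, the hour of dissection and corticosterone levels are not given in the sources used here. The comparison asks how the transcriptome of this tissue differs between mice with and without Gb5.

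Glucocorticoids, corticosterone in the mouse, are steroid hormones of the adrenal cortex that are released with stress and in a daily rhythm. In the cell they bind the glucocorticoid receptor, which is held by heat shock protein chaperones, enters the nucleus and binds response elements near its target genes. In the brain, targets such as Sgk1, Fkbp5, Tsc22d3 and the metallothioneins are widely used as readouts of this hormone. Several of them also answer to other signals, for example Cdkn1a to p53 and the metallothioneins to zinc.

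Deposited values were on the log2 scale with array medians from 5.81 to 5.85, so a difference of 1 is a doubling of signal. The targeted gene matched the labels on every array: Gnb5 read 3.67, 3.00 and 3.56 in Gb5ko and 8.79, 8.98 and 9.30 in Gb5wt. Neuronal markers averaged 11.5 to 11.7 per array. Gabra6, a receptor subunit of cerebellar granule cells, read 2.80 to 3.54. Of the other cerebellar markers, Cbln3 (mean 4.32) and En2 (4.01) were low and Zic2 read 6.51. Cbln1 (10.8), Zic1 (10.3), Pvalb (9.11) and Pcp2 (8.64) read high. How completely the cerebellum was removed was not tested. Several libraries stood apart in other ways. Growth hormone, a pituitary gene, read 10.62 in Gb5ko replicate 3 and 6.21 in Gb5wt replicate 6, against 4.20 to 5.08 elsewhere. The Y-linked Eif2s3y ranged from 2.96 to 11.28. Gb5ko replicate 2 read 11.28 for Eif2s3y and 8.31 for Xist, and Gb5wt replicate 4 read 11.26 and 4.96. Xist read 10.62 to 10.81 on the other arrays. The Y-linked Kdm5d read 6.79 in Gb5ko replicate 2 and 7.21 in Gb5wt replicate 4, against 2.59 to 3.08 elsewhere. Sex-linked genes thus differed within both groups, although the samples are described as matched in sex, and the cause was not tested. Without Gb5ko replicate 2 the largest member difference, that of Tsc22d3, was -0.70. Whether each array holds RNA of a single animal is not given in the sources used here, so p-values measure only the spread between these samples.

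No probe set of the glucocorticoid-responsive genes passed the limma test over the whole array. Of the 23 probe sets 0 passed a Benjamini-Hochberg adjusted p of 0.05, against 0.0266% of all probe sets (12 of 45037), and the adjusted p values ran from 0.203 to 0.954. At an unadjusted limma p under 0.05, 4 were lower in Gb5ko, where 6.33% of all probe sets were, and 1 was higher, where 8.09% were. Groups did not overlap, with every Gb5ko array below every Gb5wt array, at 5 of the 23, 21.7% against 8.95% of all probe sets. The reverse held at 1 of 23, 4.35% against 12.5%. These 6 probe sets came from 4 genes, Tsc22d3, Zbtb16, Mt2 and Nr3c1, and probe sets of a gene share its transcripts. The median difference, Gb5ko minus Gb5wt, was -0.11 over the 23 probe sets and 0.03 over all. Of the 23, 12 had a negative difference, as did 44.5% of all probe sets.

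**Figure D1:**
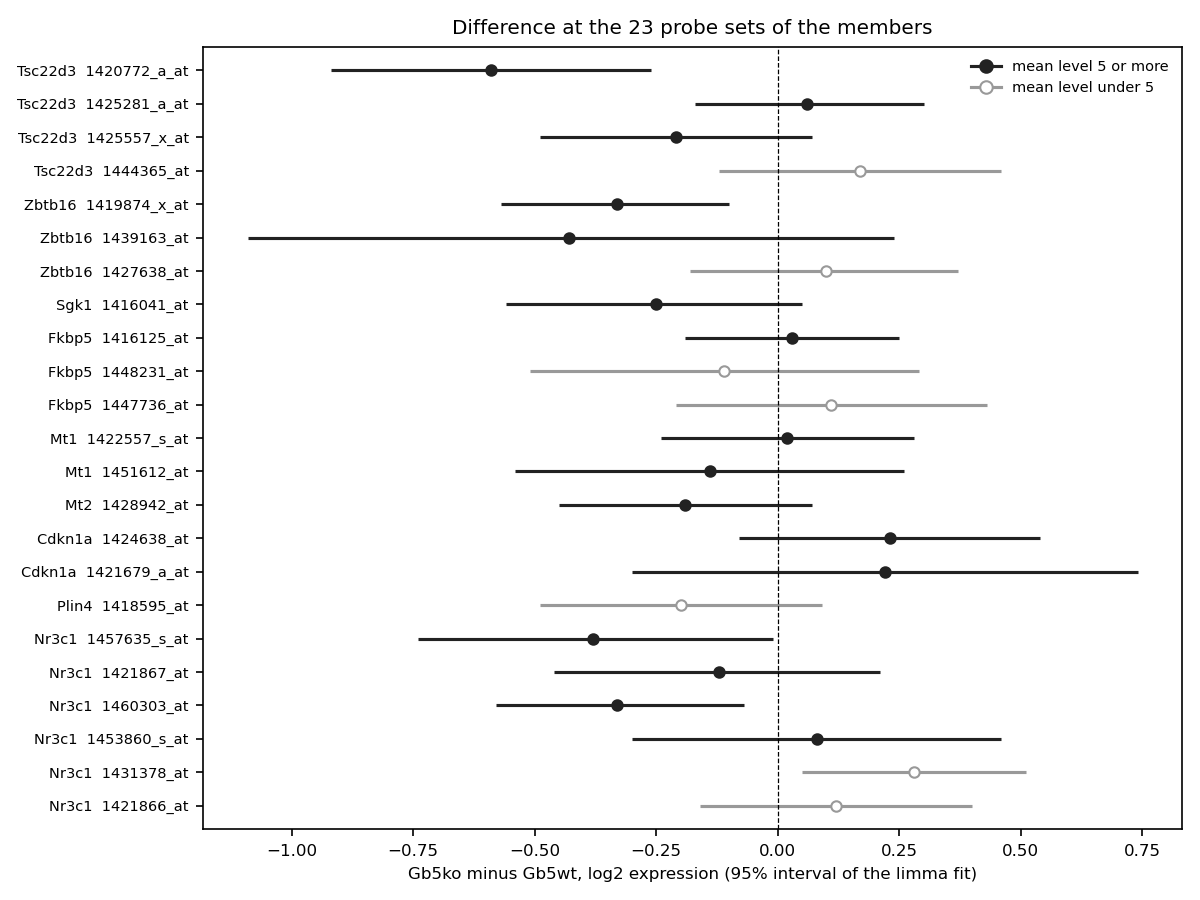
Difference in log2 expression, Gb5ko minus Gb5wt (horizontal axis), with its 95% interval for each of the 23 probe sets (vertical axis); filled points have a mean level of 5 or more over the 6 arrays and open points a lower one. Of the 23 values 12 lie below 0 and 11 above, and the lowest is that of Tsc22d3 at -0.59.

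The receptor gene Nr3c1, on chromosome 18, had 6 probe sets, and they did not give 1 answer. The brightest (1457635_s_at) read 9.96, 10.45 and 10.61 in Gb5ko and 10.79, 10.64 and 10.72 in Gb5wt. Groups did not overlap, and Gb5ko replicate 1 lay far below the other 5 arrays. The difference was -0.38 ± 0.161 (SE), with a limma adjusted p of 0.334. Without Gb5ko replicate 1 it was -0.19, with a 95% interval from -0.44 to 0.06. A second bright probe set (1460303_at) read 8.73, 9.03 and 8.97 in Gb5ko and 9.20, 9.20 and 9.31 in Gb5wt, again without overlap. It gave -0.33 ± 0.112 (limma adjusted p = 0.269) and -0.24 without Gb5ko replicate 1. The third bright one (1421867_at), at 9.27, 9.79 and 9.61 against 9.58, 9.85 and 9.62, overlapped between groups and differed by -0.12 (95% interval -0.46 to 0.21). Without Gb5ko replicate 1 its difference turned to 0.02. The 3 dimmer probe sets, with means of 5.11, 3.69 and 2.97, all had positive differences, of 0.08, 0.28 and 0.12. One of these (1431378_at) was the only probe set of the 23 without overlap and higher in Gb5ko, at 3.86, 3.92 and 3.72 against 3.58, 3.48 and 3.60. It lay well below the median level of all probe sets, 5.83, and no detection call was available.

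Tsc22d3, on the X chromosome, encodes GILZ, a leucine zipper protein that mediates anti-inflammatory effects of glucocorticoids. Its brightest probe set (1420772_a_at) gave the lowest value among the 23. It read 6.81, 7.19 and 6.92 in Gb5ko, a mean of 6.97 ± 0.198 (SD, n = 3), and 7.65, 7.32 and 7.74 in Gb5wt, a mean of 7.57 ± 0.222 (SD, n = 3). Groups did not overlap, with Gb5ko replicate 2 and Gb5wt replicate 5 nearest to each other. The difference of -0.59 ± 0.146 (SE) is a 1.51-fold lower signal, with a 95% interval from -0.92 to -0.26 and a limma adjusted p of 0.203. With single arrays left out it lay between -0.72 and -0.51, and without the array of highest growth hormone in each group it was -0.48. With Eif2s3y as a covariate it was -0.59, but Eif2s3y differed by only -0.05 between groups, so this fit could hardly move it. The exact permutation p of the group means was 0.1, the smallest that 3 against 3 arrays allow.

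Other Tsc22d3 probe sets did not repeat that size. The next brightest (1425281_a_at) read 6.48, 6.61 and 6.65 in Gb5ko and 6.55, 6.41 and 6.59 in Gb5wt, a difference of 0.06 with a 95% interval from -0.17 to 0.30. That interval does not reach -0.59. The third (1425557_x_at), at 5.30, 5.72 and 5.47 against 5.77, 5.65 and 5.71, overlapped and differed by -0.21 (95% interval -0.49 to 0.07). Its suffix x marks probes that match other sequences, so its signal need not be of Tsc22d3 alone. The dimmest (1444365_at), with a mean of 3.38, differed by 0.17. The gene has several start sites, and which transcripts each probe set reads was not tested. RefSeq sequence (GRCm38.p6) was at hand for 3 Tsc22d3 promoters, read as the 250 bases before an annotated start. One of them, on the minus strand of chrX:140600523-140600772, held a glucocorticoid receptor half-site, TGTTCT, which begins 185 bases before the start. It is shown because Tsc22d3 had the largest difference, with the half-site in capitals, 5′ to 3′ along the gene:
Tsc22d3 promoter: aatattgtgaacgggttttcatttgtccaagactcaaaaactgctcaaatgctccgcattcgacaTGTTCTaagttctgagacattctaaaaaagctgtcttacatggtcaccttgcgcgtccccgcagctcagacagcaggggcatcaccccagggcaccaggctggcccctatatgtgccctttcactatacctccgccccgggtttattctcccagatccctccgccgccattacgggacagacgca
On either strand, 16.1% of 32851 mouse promoters of this length held such a half-site, so a match is a description only.

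**Figure D2:**
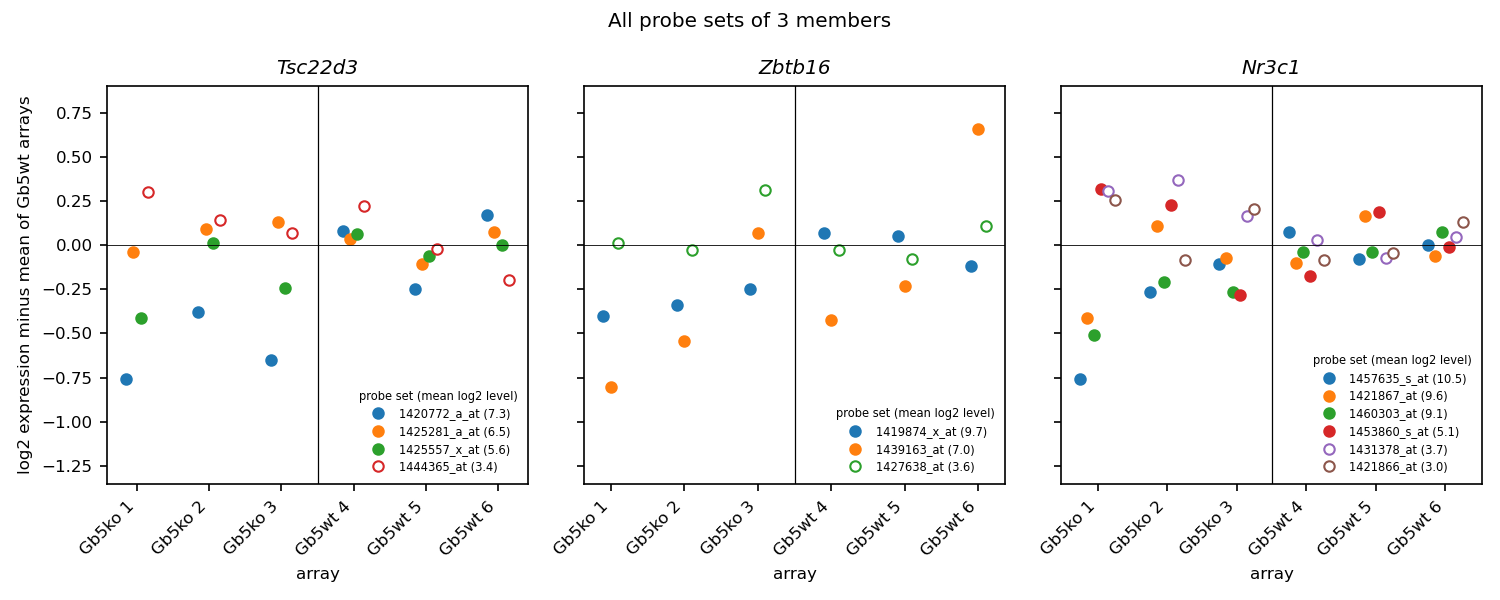
Log2 expression minus the mean of the 3 Gb5wt arrays (vertical axis) on each of the 6 arrays (horizontal axis) for all probe sets of Tsc22d3 (4), Zbtb16 (3) and Nr3c1 (6); the legend gives each probe set's mean log2 level, and open circles have a mean under 5. Gb5ko replicate 1 is the lowest array at the brightest probe set of each gene, while the probe sets with open circles lie at or above 0 there.

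Zbtb16, which encodes the zinc finger transcription factor PLZF, lies on chromosome 9, as does Gnb5. In the RefSeq table the span of Zbtb16 begins at base 48651797 and that of Gnb5 at base 75306288. The brightest Zbtb16 probe set (1419874_x_at) read 9.44, 9.50 and 9.59 in Gb5ko and 9.91, 9.89 and 9.72 in Gb5wt. Groups did not overlap, and the spread within each was small, 0.0745 and 0.104 (SD, n = 3). The difference was -0.33 ± 0.104 (SE) with a limma adjusted p of 0.252, and from -0.39 to -0.30 with single arrays left out. The suffix x marks a probe set with probes that match other sequences, so the signal need not be of Zbtb16 alone. A second probe set (1439163_at) read 6.38, 6.64 and 7.25 in Gb5ko and 6.76, 6.95 and 7.84 in Gb5wt. It varied more within the groups, and Gb5ko replicate 3 and Gb5wt replicate 6, the arrays of highest growth hormone in their groups, were its highest. Its difference was -0.43 with a wide 95% interval from -1.09 to 0.24, and single arrays moved it, from -0.10 without Gb5wt replicate 6 and -0.24 without Gb5ko replicate 1 to -0.67 without Gb5ko replicate 3. The dim remaining probe set (1427638_at), with a mean of 3.62, differed by 0.10.

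Sgk1 on chromosome 10 encodes a serine/threonine kinase that regulates ion channels and transporters, and had 1 probe set. It read 10.66, 10.94 and 10.90 in Gb5ko and 11.30, 10.87 and 11.09 in Gb5wt. Gb5wt replicate 5 fell among the Gb5ko arrays, so the groups overlapped. The difference was -0.25 ± 0.135 (SE), with a 95% interval from -0.56 to 0.05 and a limma adjusted p of 0.417. It was -0.17 without Gb5ko replicate 1 and -0.15 without Gb5wt replicate 4, its highest array. Among the 15 member promoters at hand, of 7 genes, 1 held the full palindromic glucocorticoid response element, AGAACA and TGTTCT with 3 bases between them, and it belonged to Sgk1. That window precedes 1 of 6 annotated Sgk1 starts, inside the span of longer Sgk1 transcripts, on the plus strand of chr10:21993640-21993889, and the element, in capitals, begins 189 bases before the start:
Sgk1 promoter: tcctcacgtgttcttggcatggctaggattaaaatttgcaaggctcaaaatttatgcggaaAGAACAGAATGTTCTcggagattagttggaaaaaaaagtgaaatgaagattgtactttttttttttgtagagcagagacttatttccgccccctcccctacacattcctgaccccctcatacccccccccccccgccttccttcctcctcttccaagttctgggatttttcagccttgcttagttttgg
Its ends are themselves the half-site on each strand, and another half-site lies upstream of it. Over all 32851 promoters, 3 held the palindrome, 0.00913%, the others being those of Acnat2 and Gm35041, named after the search. No other member promoter at hand held it in these 250 bases, and 4 of the 15 held a half-site, 3 of them of Sgk1 and 1 of Tsc22d3. Promoters of Zbtb16 and Nr3c1 were not used here.

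Fkbp5, on chromosome 17, encodes a co-chaperone that lowers the receptor's affinity for hormone and is itself induced by it. Its brightest probe set (1416125_at) read 8.18, 8.08 and 8.01 in Gb5ko and 8.09, 8.02 and 8.06 in Gb5wt. Groups lay within each other, with a difference of 0.03 ± 0.0977 (SE) and a 95% interval from -0.19 to 0.25 (limma adjusted p = 0.904). The other probe sets (1448231_at and 1447736_at), dim at means of 4.30 and 2.71, differed by -0.11 and 0.11.

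The metallothioneins Mt1 and Mt2, adjacent on chromosome 8 in the RefSeq table, encode small cysteine-rich proteins that bind zinc and copper. The bright Mt1 probe set (1422557_s_at) read 11.89, 11.60 and 11.79 in Gb5ko and 11.78, 11.61 and 11.83 in Gb5wt. Both groups covered the same range, with a difference of 0.02 ± 0.116 (SE) and a 95% interval from -0.24 to 0.28. The suffix s marks probes shared by several transcripts. A dimmer Mt1 probe set (1451612_at) read 5.44, 5.42 and 5.42 in Gb5ko and 5.32, 5.36 and 6.02 in Gb5wt, where replicate 6 alone stood high. Mt2 read 11.06, 11.18 and 11.26 in Gb5ko and 11.26, 11.27 and 11.54 in Gb5wt. Its groups did not overlap by a margin of only 0.0026. The Mt2 difference was -0.19 ± 0.116 (SE), with a 95% interval from -0.45 to 0.07 and a limma adjusted p of 0.473. Without Gb5wt replicate 6, its highest array, it was -0.10. Both genes are induced through metal response elements as well as by hormone. The Mt2 promoter, on the plus strand of chr8:94172368-94172617, is shown because it held the most metal response cores among the member promoters at hand, in capitals as TGCGCNC or TGCACNC on either strand:
Mt2 promoter: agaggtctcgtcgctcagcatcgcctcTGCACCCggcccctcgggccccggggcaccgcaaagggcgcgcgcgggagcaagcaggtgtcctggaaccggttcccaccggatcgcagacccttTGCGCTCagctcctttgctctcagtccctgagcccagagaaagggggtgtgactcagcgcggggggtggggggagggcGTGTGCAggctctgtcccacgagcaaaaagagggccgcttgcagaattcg
The 3 cores begin 223, 128 and 50 bases before the annotated start, and the window before the 1 Mt1 start in the table held 1. Among all promoters of this length 21.4% held at least 1. Neither held a glucocorticoid half-site in this window.

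Cdkn1a, on chromosome 17, encodes the cell cycle inhibitor p21, a target of both p53 and the glucocorticoid receptor. Both of its probe sets had a positive difference, and neither passed. The brighter (1424638_at) read 9.57, 9.34 and 9.13 in Gb5ko and 9.25, 9.16 and 8.95 in Gb5wt, which overlap. It differed by 0.23 ± 0.137 (SE), with a 95% interval from -0.08 to 0.54 and a limma adjusted p of 0.468. The other (1421679_a_at) read 7.08, 6.42 and 6.02 against 6.37, 6.17 and 6.33, a difference of 0.22 that was carried by Gb5ko replicate 1. Without that array the values were 0.12 and -0.07, so the second turned sign. The brighter probe set gave 0.14 without Gb5wt replicate 6, and the other 0.46 without Gb5ko replicate 3. Plin4, on chromosome 17, encodes perilipin 4, a lipid droplet coat protein of fat and muscle. Its probe set (1418595_at) read 3.06, 3.38 and 3.25 in Gb5ko and 3.56, 3.49 and 3.24 in Gb5wt, at percentile 17.5 of all probe sets. No detection call was available at this low level, and it differed by -0.20 (95% interval -0.49 to 0.09), or by -0.13 without Gb5wt replicate 4.

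**Figure D3:**
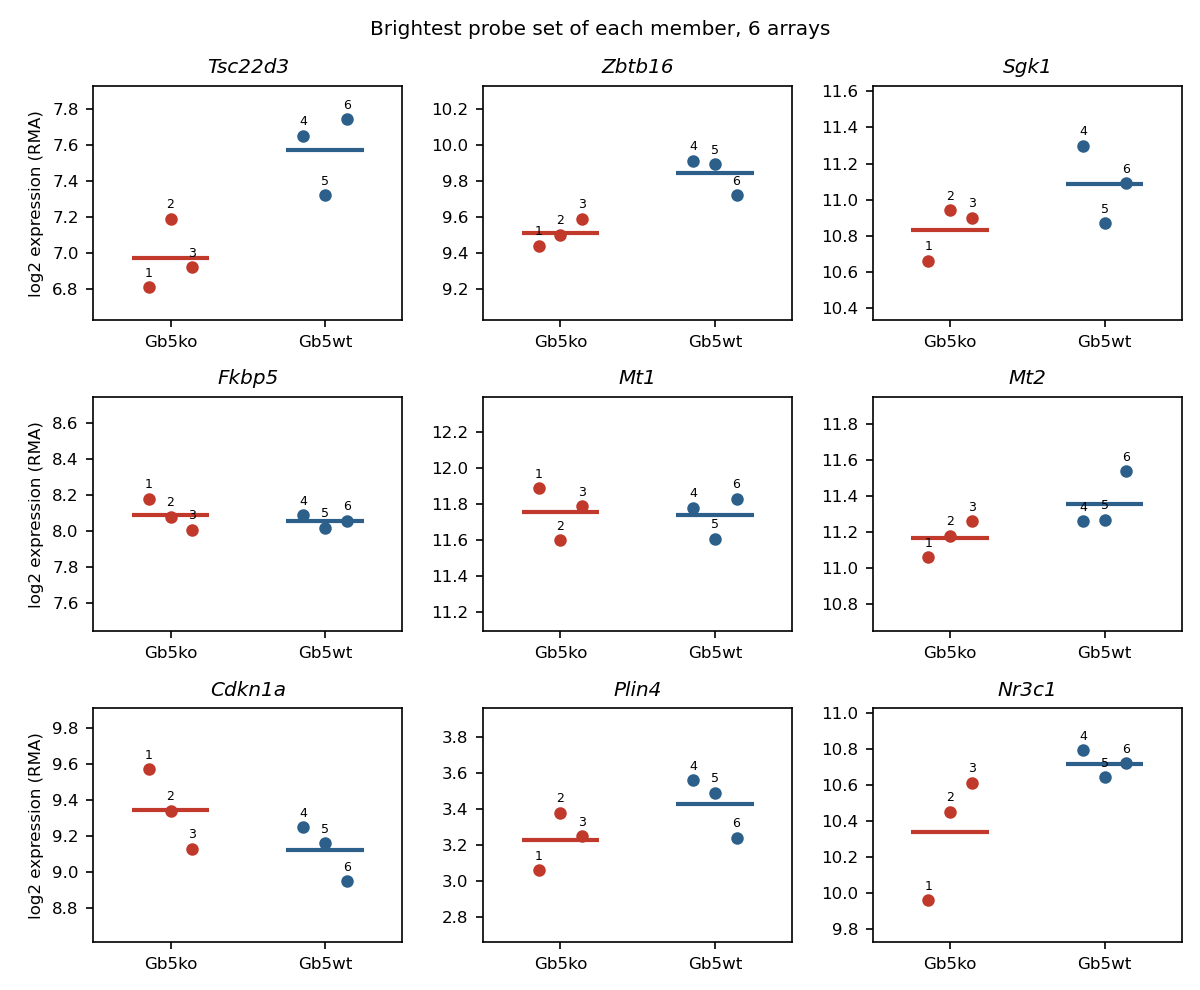
Log2 expression (vertical axis, each panel spanning the same width) of the brightest probe set of each of the 9 members in Gb5ko (red, replicates 1 to 3) and Gb5wt (blue, replicates 4 to 6); points are arrays with their replicate numbers and bars are group means. Groups do not overlap for Tsc22d3, Zbtb16, Mt2 and Nr3c1, and Gb5ko replicate 1 is the lowest or highest point in every panel.

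Read through their brightest probe sets, 6 of the 9 members had a negative difference, with a median of -0.20 against 0.05 over 18193 genes. Negative differences made up 40.1% of all genes. Groups did not overlap, with Gb5ko lower, in 4 of the 9 members and in 9.01% of all genes. They did not overlap with Gb5ko higher in 0 of the 9 members and in 16.1% of all genes. Read as the mean of all probe sets of a gene, 1 of 9 members had groups that did not overlap, and that gene was Mt2, which has a single probe set. Gb5ko was the lower group there, as in 7.57% of all genes read the same way, and 15.4% of genes had Gb5ko higher without overlap, against 0 members.

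Gb5ko replicate 1 lay at the edge of every one of these comparisons. It was the lowest of the 6 arrays for Tsc22d3, Zbtb16, Sgk1, Mt2, Plin4 and Nr3c1, and the highest for Fkbp5, Mt1 and Cdkn1a, so it was extreme in all 9 members. Among all 18193 genes the same array was the lowest in 20.2% and the highest in 35.0%, 55.2% in all, more than any other array. Gb5wt replicate 4 came next, extreme in 4 members and in 44.9% of genes. Without Gb5ko replicate 1, the differences at the brightest probe sets were -0.51 for Tsc22d3, -0.30 for Zbtb16, -0.17 for Sgk1, -0.14 for Mt2, -0.12 for Plin4 and -0.19 for Nr3c1, and their signs stayed. Those of Fkbp5 and Mt1 turned to -0.01 and -0.04, and that of Cdkn1a was 0.12. At an unadjusted limma p under 0.05, 3 member probe sets were then lower and 1 higher, against 4.47% and 5.27% of all probe sets. Tsc22d3 (1420772_a_at), Zbtb16 (1419874_x_at) and Nr3c1 (1460303_at) were those lower.

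Over the 6 arrays no pair of members passed a test of co-variation. The 36 pairs of brightest probe sets had a median Pearson r of 0.08, 19 of them positive. At an exact permutation p under 0.05, 7 had such an r and 3 such a Spearman rho, and 0 passed Benjamini-Hochberg adjustment over the 36, with smallest adjusted p values of 0.214 for r and 0.308 for rho. Tsc22d3 and Sgk1 had an r of 0.85 (exact permutation p = 0.0319) and a rho of 0.77 (0.103). The r was 0.82 without the 2 arrays farthest from the Tsc22d3 median and 0.77 over deviations from the group means. In each pair below, the 2 arrays left out are those farthest from the median of the gene named first. They can thus differ between pairs. Zbtb16 and Nr3c1 had an r of 0.79 (exact permutation p = 0.0194) and a rho of 0.94 (0.0167), with 0.87 without 2 arrays and 0.54 over deviations. Mt2 and Cdkn1a ran opposite, at an r of -0.94 (exact permutation p = 0.0194) and a rho of -0.83 (0.0583), with -0.86 without 2 arrays and -0.91 over deviations. Cdkn1a and Nr3c1 gave an r of -0.84 (exact permutation p = 0.0333) and a rho of -0.60 (0.242), with -0.42 without 2 arrays and -0.74 over deviations. Mt1 and Mt2, neighbours in the genome, had an r of 0.05 (exact permutation p = 0.958) and a rho of -0.09 (0.919), with -0.39 without 2 arrays. Tsc22d3 and Fkbp5, both standard readouts of the hormone, had an r of -0.27 (exact permutation p = 0.631) and a rho of -0.14 (0.803), with 0.69 without 2 arrays. Pairs with an r of at least 0.8 numbered 4, and 1 without Gb5ko replicate 1.

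**Figure D4:**
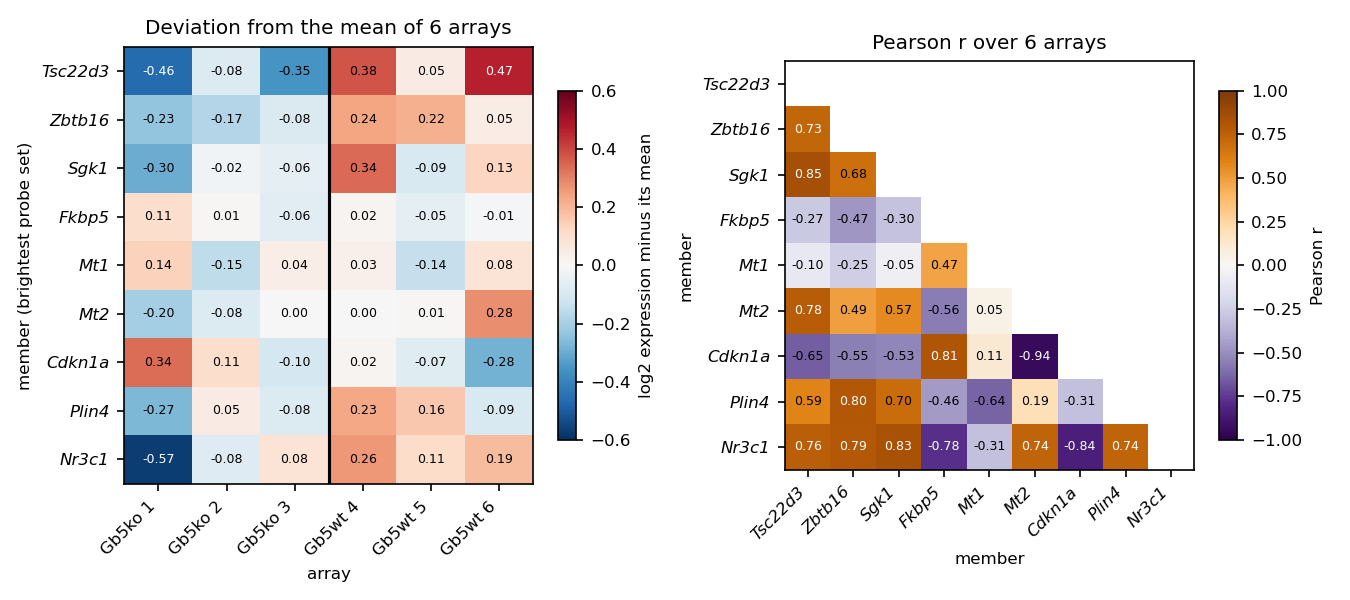
Left, log2 expression minus its mean over the 6 arrays for the brightest probe set of each member (rows) on each array (columns, Gb5ko left of the line); right, Pearson r over the 6 arrays for each of the 36 pairs of members. Gb5ko replicate 1 is the lowest or highest array in every row, and Mt2 and Cdkn1a have the lowest r, -0.94.

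Of 29 pairs of probe sets of the same gene, 14 had a positive r over the 6 arrays and 15 a negative one. Where both probe sets lay above the array median of 5.83, 6 of 6 were positive, from 0.03 to 0.90. Of the 29, 0 passed adjustment over the 29 (smallest adjusted exact permutation p = 0.383). The best were the Nr3c1 probe sets 1457635_s_at and 1460303_at, at an r of 0.90 (exact permutation p = 0.0153) and a rho of 0.89 (0.0333). The Tsc22d3 probe sets 1420772_a_at and 1425557_x_at followed, at 0.86 (exact permutation p = 0.0264) and 0.71 (0.136). Of these, 1425557_x_at has the x suffix and a mean of 5.6, below the array median. The Cdkn1a probe sets came next, at 0.80 (exact permutation p = 0.0722) and 0.83 (0.0583). Gb5ko replicate 1 was the lowest array at both probe sets of the Nr3c1 and Tsc22d3 pairs and the highest at both of Cdkn1a. What these r values are without that array is not given here. Tsc22d3 probe sets 1420772_a_at and 1425281_a_at, both above the median level of the array, had an r of 0.03 (exact permutation p = 0.942).

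The genes most like Tsc22d3 over the 6 arrays, by Pearson r among 11423 genes with a mean level of at least 6, were Xiap (0.997), an inhibitor of caspases on the X chromosome, Tent5c (0.99), a poly(A) polymerase, and D830012I24Rik (0.99). Tent5c read 6.91, 7.21 and 7.03 in Gb5ko and 7.76, 7.50 and 7.83 in Gb5wt. Most like Fkbp5 were the RNA-binding protein gene Msi1 (0.995), the deubiquitinase gene Usp43 (0.993) and Pabpc4 (0.988). These values are the highest of 11423 genes over only 6 points. At a looser cut, an r of at least 0.9, 256 of the 11423 genes were like Tsc22d3 and 195 like Fkbp5. How often 6 points give such values without a shared cause was not tested. Msi1, at 7.74, 6.97 and 6.46 in Gb5ko and 7.03, 6.64 and 6.76 in Gb5wt, shared with Fkbp5 the high value in Gb5ko replicate 1.

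Other genes known to be induced by glucocorticoids did not pass either. Of 30 listed genes 27 had a 1-gene probe set, 0 passed the limma adjusted threshold, against 0.022% of all genes, and 17 had a negative difference, with a median of -0.07. At an unadjusted limma p under 0.05, 2 were lower and 2 higher, where 5.68% and 9.89% of all genes were, 15.6% in either direction. Those lower were Tiparp, a mono-ADP-ribosyltransferase, at -0.31 ± 0.117 (SE), and Ddit4, an inhibitor of mTORC1, at -0.29 ± 0.111. Ddit4 read 11.76, 11.59 and 11.44 in Gb5ko and 11.91, 11.85 and 11.89 in Gb5wt, without overlap. Those higher were the kinase gene Map3k6 (0.54 ± 0.214) and the clock gene Per1 (0.35 ± 0.139). Per1 read 8.22, 7.95 and 8.23 in Gb5ko and 7.70, 7.62 and 8.04 in Gb5wt, with Gb5wt replicate 6 among the Gb5ko arrays. Map3k6, at 6.79, 6.41 and 5.80 against 5.78, 5.89 and 5.72, was highest in Gb5ko replicate 1. Groups did not overlap with Gb5ko lower at 4 of the 27, against 9.01% of all genes, and with Gb5ko higher at 0, against 16.1%.

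Genes of the receptor machinery and the stress axis gave 15 measured of 19 listed, 0 passing, 7 negative and a median of 0.00. At an unadjusted limma p under 0.05, 2 were lower and 0 higher, where 5.68% and 9.89% of all genes were. Crh, whose hypothalamic product heads the stress axis, read 9.15, 9.40 and 9.52 in Gb5ko and 9.71, 9.79 and 9.70 in Gb5wt. Its groups did not overlap, and the difference was -0.37 ± 0.118 (limma adjusted p = 0.254). The tissue was brain without cerebellum, and which regions gave the Crh signal was not tested. Ncoa2, a coactivator of the receptor, differed by -0.34 ± 0.143 at its brightest probe set, while its other 3 probe sets differed by 0.22, 0.10 and 0.17. The chaperone gene Hspa8 differed by -0.22 at its brightest probe set and by -0.57 to 0.00 at the others, and Hsd11b2, which inactivates corticosterone, by 0.44 at a mean level of 4.78 in Gb5ko. The mineralocorticoid receptor gene Nr3c2 read 8.96, 9.11 and 9.12 in Gb5ko and 9.10, 9.12 and 9.03 in Gb5wt. Hsd11b1, which regenerates corticosterone, read 9.60, 9.86 and 9.96 against 9.72, 9.78 and 9.91. Both sets of values overlapped throughout.

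Of 7 metal response genes 0 passed, 4 were negative and the median was -0.09. The synaptic zinc transporter gene Slc30a3 (0.32 ± 0.134), the zinc exporter gene Slc30a1 (0.13, and -0.10 at a dimmer probe set), Cp (-0.18) and Slc39a14 (-0.15) had the smallest p values. Of 10 measured p53 targets, from 12 listed, 0 passed and 7 were negative, with a median of -0.07. Trp53inp1 had the largest difference, -0.54 ± 0.141 (limma adjusted p = 0.216), opposite in sign to Cdkn1a, and read 8.32, 8.80 and 8.56 in Gb5ko and 9.26, 8.95 and 9.10 in Gb5wt. Bbc3 differed by 0.36, Ccng1 by -0.27 and Zmat3 by -0.15. Of the 3 measured perilipins 0 passed, and Plin5 read 6.63, 6.50 and 6.29 in Gb5ko and 5.91, 5.94 and 6.05 in Gb5wt. Its difference was 0.51 ± 0.116 (limma adjusted p = 0.193) and without overlap, while Plin2 differed by 0.15 and Plin3 by -0.05.

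**Figure D5:**
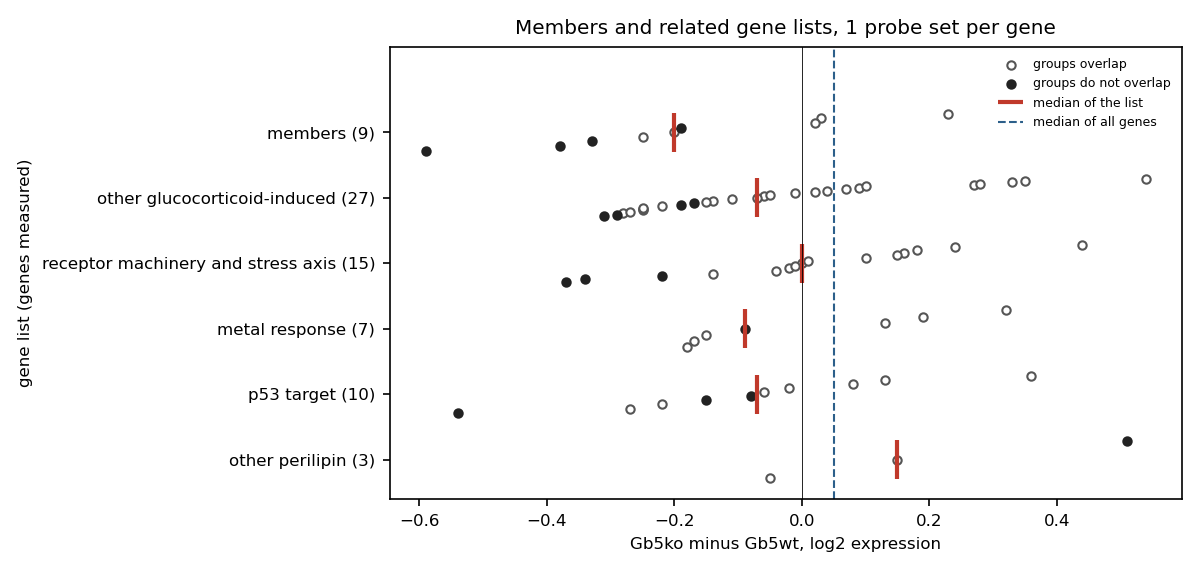
Difference in log2 expression, Gb5ko minus Gb5wt (horizontal axis), of each gene, read through its brightest probe set, for the members and 5 related lists (rows, with the number of genes measured); filled points are genes whose groups do not overlap, red bars are list medians and the dashed line is the median of all genes, 0.05. The members' median is -0.20 and that of the 27 other glucocorticoid-induced genes -0.07.

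Marker lists of other cell types and states were read the same way, beside a median of 0.05 over all genes, and their part in the results was not tested. In bulk tissue, fewer cells of a type and less RNA per cell cannot be told apart. Oligodendrocyte markers had 9 of 9 genes negative with a median of -0.24. Their mean log2 level was 9.99 to 10.6 in Gb5ko and 10.4 to 10.8 in Gb5wt, lowest in Gb5ko replicate 1. That array was also the lowest for the endothelial (7.66), astrocyte (10.1), neuronal (11.5) and sex-linked (4.9) lists, and for the other glucocorticoid-induced genes (8.62). It was the highest for the cerebellar (7.35) and other perilipin (6.44) lists. Among the 9 members it was the lowest for 6 and the highest for 3. Among all genes it was the lowest for 20.2% and the highest for 35.0%. Endothelial markers had 8 of 9 negative (median -0.13, 7.66 to 7.80 against 7.81 to 8.08), mural markers 5 of 7 (median -0.14, 7.59 to 7.64 against 7.71 to 7.95) and astrocyte markers 7 of 10 (median -0.16, 10.1 to 10.3 against 10.3 to 10.4). Blood markers had 4 of 4 negative (median -0.24, 5.00 to 5.20 against 5.37 to 5.62). Choroid plexus markers had 5 of 7 negative (median -0.07, 7.11 to 7.41 against 7.14 to 7.51). Microglial markers had 6 of 8 positive (median 0.24, 8.56 to 8.68 against 8.41 to 8.48). Neuronal markers had 5 of 9 negative, with a median of 0.00. The 6 measured pituitary markers were all positive (median 0.79, 4.54 to 7.46 against 4.43 to 5.35), highest in Gb5ko replicate 3, and cerebellar markers had 6 of 8 positive (median 0.11). Of the 4 measured sex-linked genes 3 were negative (median -0.03).

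Immediate early genes, which respond to neuronal activity and handling, had 8 of 10 positive with a median of 0.34 and a mean level of 7.10 to 7.43 in Gb5ko against 6.87 to 7.15 in Gb5wt. Circadian clock genes had 6 of 12 positive and a median of -0.01. Among them Nr1d1 read 8.23, 7.75 and 7.75 in Gb5ko and 7.55, 7.26 and 7.43 in Gb5wt, and Dbp 10.27, 10.07 and 10.47 against 9.95, 9.87 and 10.01, both without overlap and higher in Gb5ko. Cry2 was likewise higher without overlap (0.24). Nr1d2, the paralogue of Nr1d1, was lower without overlap, by a gap below the rounding shown, at 10.19, 10.62 and 10.54 against 10.62, 10.64 and 10.66 (-0.19), and Per2 differed by -0.27 with overlap. In all these marker lists 0 genes passed the limma adjusted threshold.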

How the data were processed

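Total RNA of 6 brain samples was measured on Affymetrix arrays, 1 per sample. The deposited values are log2 expression per probe set. RMA and Partek, without versions, stand in the submitters' processing notes. RMA brings all arrays to one distribution and compresses differences near background. The values were not normalized again. No scanner files or detection calls were used here, the number of arrays limits the precision, and the median standard error of a difference was 0.123.

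After 64 control probe sets were left out, 45037 remained, and limma 3.58.1 (lmFit, eBayes; R 4.3.3) gave each difference, two-sided, with Benjamini-Hochberg adjustment over all of them and a threshold of 0.05. The script was tested on simulated data. Genes were read through their 1-gene probe set of highest mean. Single values were also compared by exact permutation over 20 splits, and pairs of members over 720 orders. Chromosomes and promoters came from RefSeq (GRCm38.p6), where 9 of 9 members matched by Entrez identifier. The members, the 5 related lists and the 13 marker lists were chosen with earlier results of these data known. The text names every member probe set, up to 4 genes per list by smallest p, and the 3 genes most like Tsc22d3 and Fkbp5. Other list genes, such as Nr3c2, Hsd11b1 and Gabra6, were picked with their values in view. Alternatives tried were filters, normalizations, variance models, array weights, thresholds, probe set choice, left-out arrays and Eif2s3y as a covariate. Figures were drawn with matplotlib 3.10.9.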

Additional observations from a re-analysis of the deposited data

How the results depend on the processing

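No paired analysis was made, because the sources used here do not say which samples share a litter. The replicate numbers only run on from one group to the other. Over 15 alternative fits, 314 differences of member probe sets were computed where the probe set passed the filter, and 0 passed an adjusted p of 0.05. The 23 probe sets included 16 with a mean of at least 5 and 13 above the median of all values on at least 3 arrays. The array-wide count of 12 calls moved to 20 with a mean of at least 5, 23 with trend and robust eBayes, 27 with array weights, 4 with 1 probe set per gene and 44 at an adjusted p under 0.1. An unadjusted p under 0.05 gave 6493 probe sets, 14.4% of all, and 5 of the 23 member probe sets. It gave 4 other glucocorticoid-induced genes, 2 of the receptor machinery, and 1 each of the metal response, p53 and perilipin lists. Of all genes 15.6% reached that level. The members and each list had 0 after adjustment. At that level the 5 member probe sets became 6 with trend and robust eBayes, where 15.6% of all probe sets were. With single arrays left out they became 3 to 8. Without Gb5ko replicate 3 they were 8 (5 lower, 3 higher), against 6.39% lower and 8.47% higher of all probe sets. Without Gb5wt replicate 6 they were 3 (2 lower, 1 higher), against 5.04% and 6.65%. The 4 members without overlap became 1 when all probe sets of a gene were averaged. The 4 pairs with an r of at least 0.8, a measure added after the data were seen, became 1 over deviations from the group means and 1 to 9 with single arrays left out, 1 without Gb5ko replicate 1, 7 without Gb5wt replicate 5 and 9 without Gb5wt replicate 6. Beyond these constructions the cause was not tested.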
